A study of Mus musculus with 4 samples.

Results

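The genes described here are 10 that encode helix-loop-helix repressors: the inhibitors of DNA binding Id1, Id2, Id3 and Id4, and the HES and HEY genes Hes1, Hes5, Hes6, Hey1, Hey2 and Heyl. They were taken by name from the deposited table of reproducible pSTAT3 regions, where 24 of 12925 regions were listed for 8 of the 10 genes. Hes6 and Hey2 had no row, which counts as no reproducible region within 25 kb. The regions come from ChIP-seq of STAT3 phosphorylated on its activating tyrosine (pSTAT3) in oligodendrocyte progenitors cultured from the cortex of C57BL/6 mice. Growth medium held PDGF-AA at 10 ng/ml with bFGF at 20 ng/ml, and CNTF was added at 100 ng/ml for 15 min. All 4 libraries, 2 of pSTAT3 ChIP and 2 of input, come from cells treated alike, so the data hold no untreated group. Lysed cells were pooled before sonication, and no label says that the ChIP libraries come from separate cultures, and their spread may then be technical only. Peak lists hold no expression, so the cell type is that of the labels. Each value is an average over the culture, in which the share of cells with pSTAT3 at a site and the occupancy per cell cannot be told apart.

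ID proteins have a helix-loop-helix but no basic region, so they pair with E proteins and keep these from binding DNA. HES and HEY proteins bind DNA as repressors, and HES proteins recruit Groucho/TLE co-repressors. HES and HEY genes are classical targets of Notch, acting through the DNA-binding factor RBPJ, and ID genes are classical targets of BMP signalling through SMAD proteins. In oligodendrocyte progenitors, Id2, Id4 and Hes5 are known as brakes on differentiation, while Hes6 is an atypical member that counteracts Hes1.

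RefSeq promoter windows were matched by symbol for 6 of these genes, each of 250 bases before and 50 bases after a start. The sequences below contrast 2 windows that lie whole within a reproducible region (Id2, Hes5) with 1 that touches a replicate 1 peak only at its upstream end (Hes6) and 1 with no peak in either library (Hey2). They are from RefSeq (GRCm38.p6), on the strand of the gene, 5′ to 3′. Capitals mark TGGGAA on either strand, the core recognised by RBPJ, and GGCGCC, a palindromic GC element known from BMP-responsive ID promoters.
Id2 (chr12:25096043-25096342, minus strand): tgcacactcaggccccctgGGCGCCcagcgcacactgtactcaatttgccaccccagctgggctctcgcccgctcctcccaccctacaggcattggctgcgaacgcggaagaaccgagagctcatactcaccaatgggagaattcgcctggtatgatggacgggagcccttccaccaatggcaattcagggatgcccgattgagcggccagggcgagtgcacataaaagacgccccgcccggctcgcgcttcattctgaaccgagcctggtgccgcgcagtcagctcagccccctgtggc
Hes5 (chr4:154960673-154960972, plus strand): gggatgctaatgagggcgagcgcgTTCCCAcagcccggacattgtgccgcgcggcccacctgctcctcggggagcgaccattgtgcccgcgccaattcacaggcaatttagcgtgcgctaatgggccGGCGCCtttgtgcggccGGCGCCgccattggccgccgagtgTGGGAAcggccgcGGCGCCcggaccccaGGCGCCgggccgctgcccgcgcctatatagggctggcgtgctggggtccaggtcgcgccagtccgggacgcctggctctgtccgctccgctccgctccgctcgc
Hes6 (chr1:91413989-91414288, minus strand): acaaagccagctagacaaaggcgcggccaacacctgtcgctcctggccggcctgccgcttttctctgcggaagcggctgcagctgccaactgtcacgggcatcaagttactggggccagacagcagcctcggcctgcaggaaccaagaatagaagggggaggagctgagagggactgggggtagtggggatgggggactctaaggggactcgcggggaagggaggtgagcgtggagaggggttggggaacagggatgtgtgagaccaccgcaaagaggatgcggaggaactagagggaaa
Hey2 (chr10:30842734-30843033, minus strand): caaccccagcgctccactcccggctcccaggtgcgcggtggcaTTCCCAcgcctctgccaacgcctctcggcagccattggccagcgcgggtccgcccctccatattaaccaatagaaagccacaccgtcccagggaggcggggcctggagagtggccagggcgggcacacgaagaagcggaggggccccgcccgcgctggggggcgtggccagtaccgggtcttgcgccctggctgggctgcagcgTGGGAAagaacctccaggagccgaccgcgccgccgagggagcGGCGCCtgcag

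The palindrome TTCNNNGAA, the usual STAT site, had no match in any of the 7 windows of Id2, Id3, Id4, Hes5, Hey2 and Hes6 (which has 2), and 8.3% of all 32851 promoter windows held it. The palindrome with 4 free bases between TTC and GAA had no match either, against 6.95% of all windows. No match says only that these letters are not in these windows. In the Id2 window in particular, the peak summits lay farther upstream than the window reaches, at 404 bp from the start in replicate 1 and 380 bp in replicate 2. TGGGAA occurred in 3 of the 7 windows (Hes5, Hey2 and Id4) and in 25.6% of all windows. In Hes5 it began 226 and 82 bp upstream of the start, and in Hey2 207 and 3 bp upstream. GGCGCC occurred in 4 windows (Id2, Id4, Hes5 and Hey2) and in 11.9% of all, with 4 copies in Hes5, and no TGGGAA match shared a base with it. The 7 windows were richer in G and C, at 60% (Id3) to 73.3% (Id4), than the median of all windows, 52.7%. Whether base composition accounts for the GGCGCC count was not tested. The N box CACNAG, which HES proteins bind, occurred in 3 windows (Id2, Id4 and Hes6) and in 42.5% of all. For Hes6 this was the window of the start at 91413222, which is not shown above. Both strands were searched for each motif. Each of the 3 motifs with matches occurred in windows with and in windows without a pSTAT3 region.

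Reproducible regions near a start were found at Id1, Id2, Id3, Hes1 and Hes5, and not at Id4, Hes6, Hey1, Hey2 or Heyl. A region midpoint lay within 5 kb of a listed start for 5 of 10 genes, where 18.1% of 21887 protein-coding genes had one. The same 5 genes had a midpoint within 1 kb of a listed start, against 12.8% of protein-coding genes, but with the RefSeq start alone this count was 3, since the nearest regions of Id3 and Hes1 lie by other listed starts. Within 25 kb of a listed transcript the count was 7 of 10, with Hey1 and Heyl added, against 41.0% of protein-coding genes. Regions gathered at single loci: Id2, Id3, Hes1 and Hes5 each had at least 3 within 25 kb (4 of 10 genes, against 7.64% of protein-coding genes). Id3, Hes1 and Hes5 each had 3 midpoints within 5 kb of a listed start, and 0.690% of protein-coding genes had at least 3. For Hes1 this rests on its 4 listed starts, since from the RefSeq start its midpoints lay 5.81, 1.53 and 5.35 kb away. Of the 12 regions within 5 kb of a listed start, 9 lay upstream of it and 3 downstream. No such split over all regions is given here, so these counts have no background to be read against. The region over the Hes5 promoter counts as upstream here, but its midpoint lay 0.141 kb downstream of the RefSeq start.

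**Figure D1:**
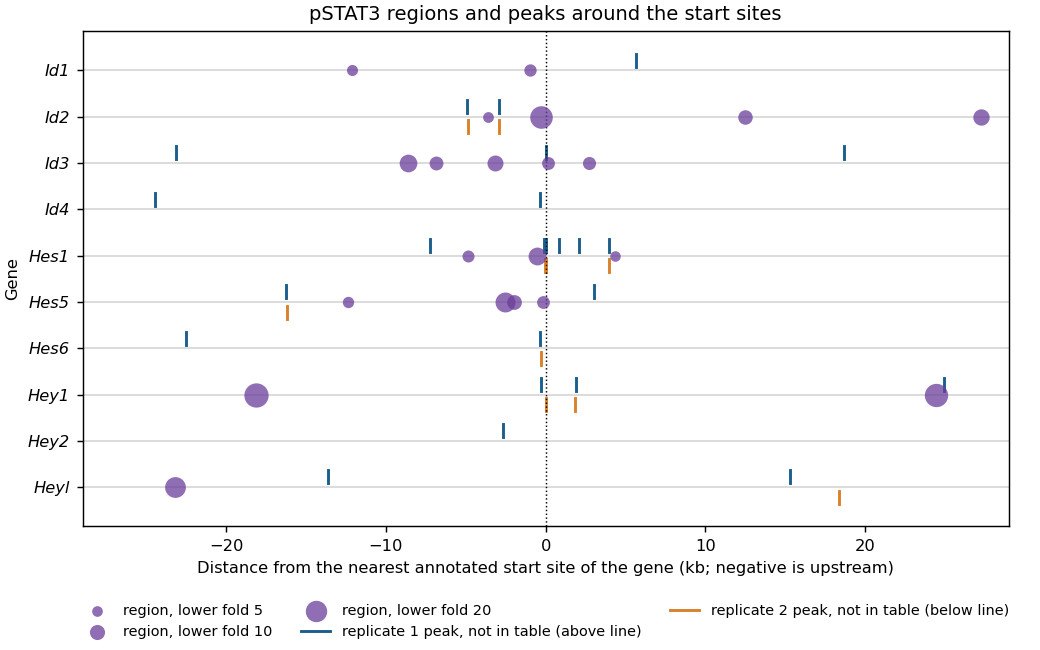
Positions of pSTAT3 regions and peaks about the start sites of the 10 genes (x axis, distance in kb, negative upstream; 1 gene per row). Discs are reproducible regions, with an area proportional to the lower fold enrichment of both replicates, and ticks are peaks of replicate 1 (above the line) or replicate 2 (below) that are not in the table; regions over 28 kb from a start, at Id2 and Id4, are not drawn. Discs lie within 5 kb of the start at Id1, Id2, Id3, Hes1 and Hes5, while those of Hey1 and Heyl lie 18.1 kb or more away.

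Fold enrichments below are the authors' values for each peak, relative to local background. Among the ID genes, Id2, an inhibitor that holds progenitors in the undifferentiated state, carried the strongest region near a start. It covered chromosome 12, 25095873 to 25096946 (GRCm38), spanned the start and had its midpoint 317 bp upstream. Its enrichment was 33.1-fold in replicate 1 and 22.3-fold in replicate 2, with 195 and 89 fragments stacked at the summits. The summits of the libraries lay 24 bp apart. This region was stronger, by the lower of both folds, than 94.3% of all reproducible regions. A weaker region lay 3.63 kb upstream, with 5.76-fold in replicate 1 and 5.12-fold in replicate 2. Downstream of the gene, regions lay 12.5 kb from the start (12.4-fold and 9.22-fold in replicates 1 and 2) and 27.3 kb from it (14.7-fold and 11.7-fold). That farther region was 24.8 kb from the transcript's end. A pair of more distant regions, for which no start nearer than that of Id2 was listed, lay 137 kb (12.6-fold and 10.2-fold) and 144 kb upstream (16.8-fold and 6.79-fold). The last had the largest ratio between libraries of all 24 regions, 2.47.

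Id3, which like Id1 is induced by BMP in many cells, had 5 regions within 10 kb, more than any other of the 10 genes had within 25 kb. From upstream to downstream their midpoints lay 8.62, 6.85 and 3.19 kb upstream and 0.141 and 2.72 kb downstream of the nearest listed start. In replicate 1 the folds in that order were 17.4, 8.75, 21.3, 9.91 and 8.92. In replicate 2 they were 13.7, 8.45, 11.2, 7.29 and 7.51. The farthest upstream and the one at 3.19 kb were thus the strongest in both libraries. The region 3.19 kb upstream had summits 387 bp apart in the libraries, the most of the 24, so the libraries placed its centre differently. The region 0.141 kb downstream (chromosome 4, 136144959 to 136145272) spanned the start of a short listed transcript inside the gene and lay 1.29 kb downstream of the RefSeq start. At the RefSeq start itself replicate 1 had a weak peak (3.43-fold) and replicate 2 had none. For the 3 upstream regions the nearest listed start was not that of Id3 but of Gm26001, and the one at 3.19 kb lay inside the RefSeq noncoding gene Gm42329.

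Id1 had the weakest signal of the genes with regions near a start. Its region at chromosome 2, 152735120 to 152735398, lay 992 bp upstream of the only listed start, with 7.70-fold in replicate 1 and 6.66-fold in replicate 2. A second lay 12.2 kb upstream, with 6.30-fold in replicate 1 and 5.38-fold in replicate 2. Both summit pairs were within 13 bp of each other. Id4, an ID gene of neural progenitors, had 1 listed region, 99.9 kb upstream of the listed start and inside the noncoding gene A330033J07Rik, with 11.2-fold in replicate 1 and 7.68-fold in replicate 2. A nearer region in the table, 63.2 kb from the RefSeq start of Id4 (19.8-fold and 15.9-fold in replicates 1 and 2), was listed for other genes. Within 25 kb of an Id4 start, replicate 1 alone had peaks, at 24.5 kb upstream (7.17-fold) and 354 bp upstream (3.67-fold).

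Among the HES genes, Hes5, the main Notch target of neural progenitors, had its strongest region upstream of the promoter. At chromosome 4, 154958108 to 154958614, midpoint 2.56 kb upstream of a listed start, enrichment was 25.3-fold in replicate 1 and 17.4-fold in replicate 2. A neighbouring region 1.97 kb upstream had 13-fold in replicate 1 and 9.58-fold in replicate 2. The region over the promoter (154960367 to 154961167) had 11.2-fold in replicate 1 and 7.17-fold in replicate 2. In each library the fold thus fell with nearness to the start over these 3 regions. The summits of the promoter region lay 186 bp upstream of the listed start in replicate 1 and 258 bp in replicate 2, inside the printed window and just outside it. Relative to the RefSeq start of Hes5, 154960626, these summits lay 111 bp downstream in replicate 1 and 39 bp downstream in replicate 2. Another region lay 12.4 kb upstream, with 9.97-fold in replicate 1 and 5.63-fold in replicate 2.

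Hes1, a repressor that oscillates in neural progenitors, had 3 regions. The strongest, at chromosome 16, 30063137 to 30064513, had 18.2-fold in replicate 1 and 14-fold in replicate 2. Its midpoint lay 559 bp upstream of the first of 4 listed starts, but 1.53 kb upstream of the RefSeq start. The others lay 4.84 kb upstream (8.99-fold and 6.34-fold in replicates 1 and 2) and 4.37 kb downstream (5.77-fold and 4.86-fold). At the RefSeq start of Hes1 the libraries had overlapping peaks that are not in the table of reproducible regions, with 5.14-fold in replicate 1 and 3.74-fold in replicate 2. Replicate 1 had 6 peaks outside the table within 25 kb of a Hes1 start, of which 3 had a partner in replicate 2. Hes6, the atypical member, had overlapping peaks just upstream of its RefSeq start that are not in the table either. Their summits lay 343 bp upstream in replicate 1 (4.65-fold) and 276 bp upstream in replicate 2 (3.33-fold). The nearest reproducible region was 144 kb from the Hes6 start.

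Among the HEY genes, Notch targets that act with or in place of HES, Hey1 and Heyl carried regions only at a distance and Hey2 none. Hey1 had the strongest region of all 24 by the lower fold, at chromosome 3, 8685153 to 8685593, 18.1 kb upstream, with 33.2-fold in replicate 1 and 25.8-fold in replicate 2. Another of like strength lay 24.4 kb downstream of a start, at 8641916 to 8642485, with 35.1-fold in replicate 1 and 23.8-fold in replicate 2. The start of Gm23670 lay nearer to the upstream region (5.90 kb), and that of another listed gene to the downstream one (14.1 kb), so the link to Hey1 is the table's own and goes by distance. About the 4 listed starts of Hey1, replicate 1 had a peak 283 bp upstream of the first (3.22-fold). Replicate 2 had one 29 bp downstream of another start, inside the gene (4.46-fold), and these peaks did not overlap. Weak overlapping peaks lay 1.88 kb downstream in replicate 1 (5.07-fold) and 1.83 kb downstream in replicate 2 (3.58-fold). Heyl had 1 region, at chromosome 4, 123210064 to 123210681, 23.2 kb upstream and inside Nt5c1a, whose start was nearer, with 22.8-fold in replicate 1 and 18.9-fold in replicate 2. Hey2 had 1 peak within 25 kb of its start, in replicate 1 only, 2.67 kb upstream with 3.85-fold. Its nearest reproducible region was 156 kb away.

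**Figure D2:**
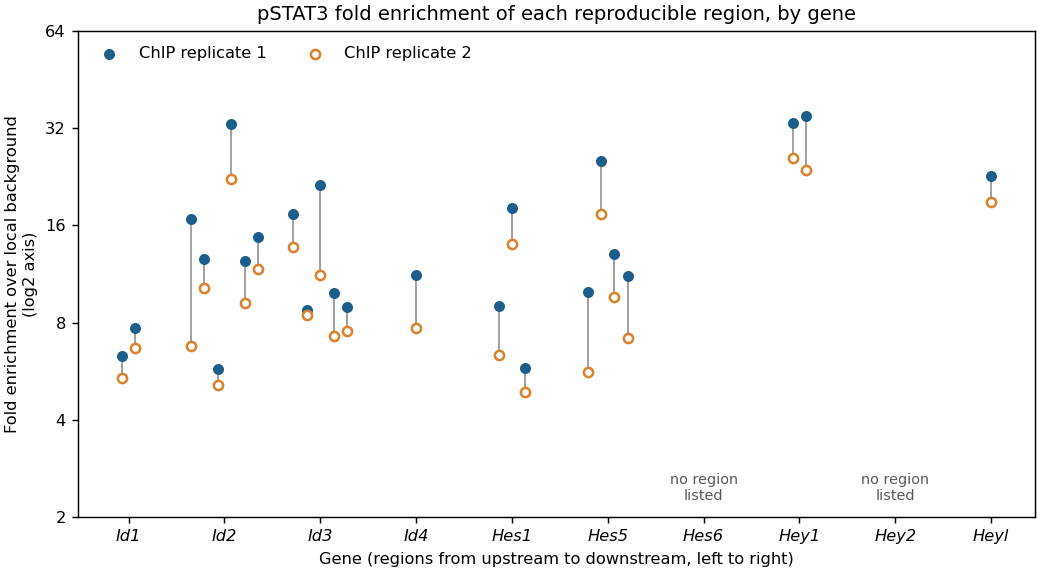
Fold enrichment over local background (y axis, log2 scale) of the 24 reproducible regions by gene (x axis), with replicate 1 as filled and replicate 2 as open circles joined by a line for each region. All 24 regions are higher in replicate 1, and the highest lower fold is 25.8 at Hey1.

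By the strongest region of each gene, the order was Hey1, Id2, Heyl, Hes5, Hes1, Id3, Id4 and Id1. The values of the 2 libraries overlapped between every pair of neighbours in this order except Id3 and Id4, where Id3 had 17.4-fold and 13.7-fold and Id4 11.2-fold and 7.68-fold. Hey1, Id2, Id4 and Id1 held the same place in both libraries when each library's own strongest value was used, while Heyl and Hes5, and Hes1 and Id3, changed places between them. The spread between libraries had 1 direction: replicate 1 was higher in 24 of 24 regions, with a median ratio of 1.32 (range 1.04 to 2.47). The same held for 95.1% of all 12925 regions, with a median ratio of 1.33.

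As a group, the 24 regions had a median lower fold of 8.83, against 7.48 over all reproducible regions, and a median width of 539 bp against 504 bp. Of them, 15 lay above the median of all regions, 8 at or above the lower fold of 11.4 that marks the highest 25%, and 4 at or below the 5.63 that marks the lowest 25%. For the 12 regions no more than 5 kb from a start, the median lower fold was 7.40. The summits of the libraries lay a median of 12.5 bp apart in the 24 regions and 20 bp apart in all. The irreproducible discovery rate (IDR), which scores how well libraries rank a region alike, was at most 0.01 in 21 of the 24 regions (87.5%) and in 79.3% of all. The 3 that missed it were the weak regions 12.2 kb upstream of Id1, 3.63 kb upstream of Id2 and 4.37 kb downstream of Hes1.

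**Figure D3:**
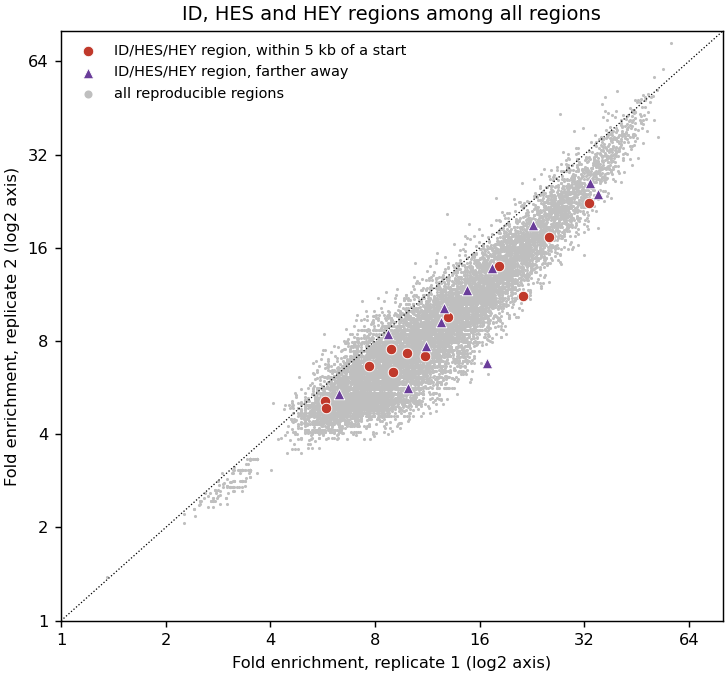
Fold enrichment in replicate 1 (x axis) and replicate 2 (y axis, both log2 scale) of the 24 regions of ID, HES and HEY genes, as circles within 5 kb of a start and triangles farther away, over all 12925 reproducible regions in grey; the dotted line marks equal values. The 24 regions lie within the cloud of all regions and below the line, and the 2 Hey1 triangles and the Id2 circle lie highest.

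Peaks of single libraries reached more of the 10 genes, as they did of all genes. A replicate 1 summit lay within 5 kb of either end of 10 of 10 genes (49.8% of protein-coding genes), and a replicate 2 summit near 8 of 10 (34.8%). Overlapping peaks of both libraries (1 bp or more) lay near 7 of 10 genes (32.8% of protein-coding genes). These were the 5 with regions near a start, Hes6 and Hey1. Replicate 1 had the longer list, 42189 peaks against 26649, and its lowest background was 4.72 stacked fragments against 2.91, a ratio of 1.62. This ratio is the only measure of depth that the lists give.

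The partners and pathways of these genes were described with 6 further lists, counting genes whose listed start had a region midpoint no farther than 5 kb away (18.1% of protein-coding genes). Of 3 E proteins, which ID proteins sequester, Tcf4 (30.6-fold in replicate 1, 26.3-fold in replicate 2) and Tcf12 (6.58-fold, 5.05-fold) had one. Of 6 Groucho/TLE co-repressors, 4 had one, with Tle3 strongest (19.4-fold, 20.8-fold), then, by the lower fold, Tle2, Tle1 and Tle6. Of 6 other HES-type and related repressors, 3 had one: Bhlhe40, a repressor of the circadian clock, at 33.8-fold and 26.5-fold, 805 bp downstream of a start, then Hes3 (20.7-fold, 12.2-fold) and Bhlhe41 (10.5-fold, 8.61-fold). Among 13 proneural and lineage bHLH factors, 3 had one. They included the oligodendrocyte lineage genes Olig1 (12.2-fold, 10.9-fold) and Olig2 (6.23-fold, 5.64-fold).

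Notch and BMP genes lie upstream of the HES, HEY and ID genes. Of 13 Notch receptors, ligands and nuclear effectors, 9 had such a region. The receptor gene Notch1 was strongest (29.5-fold in replicate 1, 27.2-fold in replicate 2), followed, by the lower fold, by the ligand gene Dll1 (14-fold, 12.9-fold), Notch2 (11.9-fold, 9.61-fold) and Rbpj (8.50-fold, 8.75-fold). In replicate 1 alone Notch3 (14.9-fold) was above Dll1, and Rbpj was the lowest of the 9. The regions of Dll1, Notch2 and Rbpj lay 47, 111 and 194 bp upstream of a start. Of 15 BMP ligands, receptors and SMAD genes, 7 had one, with the receptor gene Bmpr1b (28.4-fold, 20-fold), Bmp7 (17.2-fold, 16-fold), Bmpr1a (19.4-fold, 13.1-fold) and Bmpr2 (13.7-fold, 9.96-fold) strongest by the lower fold. Over the genes counted, the median lower fold of each gene's strongest region was 14.0 for the 5 ID and HES genes and 7.94 for all 3958 protein-coding genes. It was 15.7 for the 2 E proteins, 12.2 for the 3 other repressors, 11.3 for the 4 TLE genes and 5.64 for the 3 proneural and lineage bHLH factors. For the 9 Notch genes it was 8.22, and for the 7 BMP genes 9.96. These medians use only the strongest region of each gene, which is picked from more regions where a gene has several. Id3, Hes1 and Hes5 each had 3 to pick from and Id2 had 2, while 0.690% of protein-coding genes had at least 3. Region by region, the median lower fold near the starts of the 5 ID and HES genes was 7.4 (12 regions), against 7.48 over all 12925. No difference between lists was tested.

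**Figure D4:**
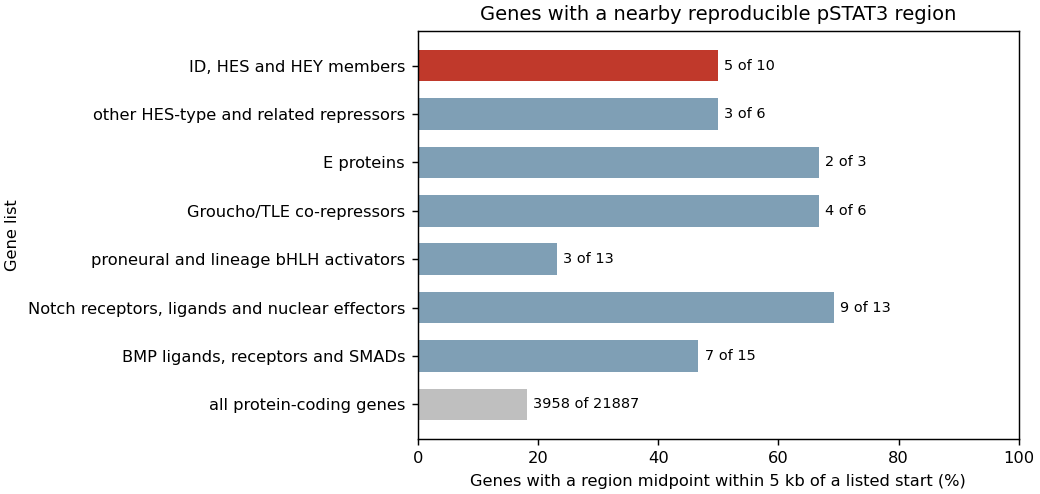
Share of genes with a reproducible pSTAT3 region midpoint within 5 kb of a listed start (x axis, percent), for the 10 ID, HES and HEY genes, the 6 related lists and all protein-coding genes (y axis), with counts beside the bars. The share is 50% for the 10 genes (5 of 10) and 18.1% for all protein-coding genes.

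The genes whose strongest region within 5 kb was most like that of Id2, by the distance between log2 folds over the 2 libraries, were Dnaja1 (33.1-fold in replicate 1, 22.5-fold in replicate 2), Ifitm10 (33.2-fold, 21.8-fold) and Tedc2 (32.7-fold, 23.0-fold).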

How the data were processed

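Per the submitters' processing notes, CASAVA 1.8, Bowtie2 and MACS2 were used, with GRCm38.p3; no options are named. The deposited files are a peak list for each of the 2 ChIP libraries and 1 table of regions reproducible between them. Per the file headers, a peak's pileup signal counts the fragments stacked at its summit, and its fold enrichment is a ratio to local background. Damaged headers hide 2 further columns, taken from their values as the -log10 p and -log10 q. In the authors' region table, the adjusted p-value column holds the IDR, none above 0.05. Its fold column repeats its pileup column and matches the mean -log10 p of the strongest peaks within 0.001 in 12377 of 12925 regions, so it was not used as a fold. What it calls a summit is the midpoint of the region. The inputs were not analysed here.

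Regions took the fold of the strongest overlapping peak (at least 1 bp) in each replicate. Starts are those of the transcripts the table lists, or of RefSeq (GRCm38.p6, same chromosome coordinates) for Hes6, Hey2 and where named. Distances are from midpoints, and positions are 1-based. Transcripts counted as within 25 kb by their nearer edge. The overlap step was checked on simulated data. With 2 libraries of 1 condition no test over samples exists, so values are given without p-values. The genes, lists and the rule for named genes (all 10 genes, up to 4 per list, nearer genes, and the 3 most like Id2) were chosen with earlier results of these data known. The values of 1 gene that this rule names are not reported here. Python 3.11.15, numpy 2.4.6, pandas 2.3.3 and matplotlib 3.10.9 were used.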

Additional observations from a re-analysis of the deposited data

How the results depend on the processing

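The count of 5 genes with a region no farther than 5 kb from a start stayed at 5 with an IDR of 0.01 or below, an overlap of at least 50% of the peak, a -log10 q of at least 10, distances from the nearer edge, and a window of 1 kb, and also with the RefSeq start alone. With single libraries it ranged from 7 (replicate 2 alone) to 9 (replicate 1 alone), since a list of 1 library holds peaks that the region table does not. Likewise the count within 25 kb, 7 of 10, ranged from 9 to 10. The same shares of all protein-coding genes were not computed, so these single-library counts have no background to be read against. Within 5 kb of either gene end, 49.8% of protein-coding genes had a replicate 1 summit and 34.8% a replicate 2 summit. With the RefSeq start alone and a window of 1 kb the count of genes with a region near a start was 3. The regions of Id3 and Hes1 lie near starts of other listed transcripts. Both alternatives with the RefSeq start alone were chosen after the data were seen. The number of regions was 24, and 20 to 24 under the alternatives. Their median fold was 8.83 as the lower of both replicates, and 8.83 to 12.5 with either library alone (8.06 to 11.1 under the others). For the strongest region of a gene, the lower fold is always that of replicate 2, so replicate 2 alone gives the same values by construction, and replicate 1 alone gave higher values for all 8 genes. With the peak nearest to the midpoint, Hes1 had 6.34 in place of 14, because replicate 2 has 2 peaks in the strongest Hes1 region, the weaker lies nearer, and the region 4.84 kb upstream then leads. No paired analysis was possible because the inputs were not analysed here and no test compares groups. Depth can be read only from the background levels of the lists, so its effect on the weak peaks of replicate 2 is unknown.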
